A study of Mus musculus with 4 samples.

Results

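The comparison set Swiss 3T3 fibroblasts without Lpar1 at 24 h of coculture with mast cells against the same clone at 0 h. Swiss 3T3 is an established mouse fibroblast line. The members were chosen by their labels alone: the 2 arrays titled for the Lpar1-/- genotype (KO), out of 4 arrays in the series. The other 2 arrays hold Lpar1+/+ fibroblasts (WT) at the same times and are given here only for reference. Each difference is the normalized log2 signal at 24 h minus that at 0 h, for genes well above background on both arrays.

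KO cells are 1 clone grown from a single cell after CRISPR/Cas9 editing beside exon 3 of Lpar1. Cocultures held wild-type bone marrow-derived mast cells and 100 ng/ml SCF for 24 h, and the fibroblasts were then separated by trypsin and reseeding or by beads against CD117, the Kit protein. For the 0 h arrays the labels do not state whether mast cells were present. RNA pooled from 3 samples went onto each array, with 200 ng labelled, so each time point is 1 array with no replicate. No test or p-value is therefore possible, and every error below is a standard error from the scanner software's spot error, which leaves out differences between cultures.

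Lpar1 encodes a G protein-coupled receptor for lysophosphatidic acid, a lipid made outside the cell by autotaxin. Mast cells are tissue leukocytes that store histamine, serotonin and proteases in granules, and they depend on SCF, the Kit ligand, which fibroblasts supply. In coculture on fibroblasts, immature mast cells take on features of connective tissue mast cells, and the title of the series places these arrays in a study of lipid signals between both cell types. The comparison asks which transcripts of fibroblasts that lack the receptor differ after a day with mast cells.

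Mast cell RNA was plentiful on the KO 0 h array and scarce at 24 h. Of 75 mast cell genes on the array, in 4 lists, 73 were well above background at 0 h and 52 at 24 h. Their median signal was 2.57 at 0 h and −5.13 at 24 h, on a scale where 0 is each array's 75th percentile of signal. The log2 of their summed signal was 10.39 and 6.77. On WT arrays it was 9.80 and 6.56. Every difference below, higher or lower, was measured beside this loss of mast cell signal. For a lower value, fewer cells of a type and less RNA per cell cannot be told apart. The only probe for Lpar1 (chromosome 4 from 58499672 to 58499731, mm9) read −3.43 and −3.61. Where it lies against the edited site is not known here, and it is no check of the genotype.

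Of 17875 genes measured on both KO arrays, 1694 were at least 2-fold higher at 24 h, which is 9.48% of them, and 1950 were at least 2-fold lower, which is 10.9%. Both directions together made 20.4%. "Higher" and "lower" are used below for these calls only. The sizes were unequal: 108 genes were higher and 767 lower by at least 2 log2 units, and 0 were higher and 217 lower by at least 5. Well above background on only 1 array were 3290 genes at 0 h, of which 1204 were at least 2-fold lower at 24 h, and 326 genes at 24 h, of which 101 were at least 2-fold higher. An "at least" fold for such a gene divides its bright signal by the dim probe's own signal, or by the lowest signal well above background on that array if that is larger. The median standard error of a difference was 0.20, and its 10th percentile was 0.20 too. It was thus nearly the same for all brighter genes and tells little of how precisely each gene was measured.

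The scale of the differences rests on a choice of reference. The median over all measured genes was 0.23, and the 19 measured fibroblast markers had a median of 1.02. With the arrays scaled so that this marker median is 0, every difference is 1.02 smaller, 106 genes are higher and 6901 lower, and higher calls are 1.51% of all calls against 46.5% as reported. Of 35 gene lists with a median above 0, 34 turn below 0 under that scaling. Only genes with a difference of at least 2.02 stay higher there, while all lower genes stay lower. Higher calls were 60.8% of calls with quantile normalization, 25.8% with the 75th percentile taken over probes above background on all 4 arrays, 26.9% without the filter on dim probes and 23.1% at a 3-fold threshold. List medians below stand beside 0.23, the median of all genes. That median itself depended on brightness: it was −0.25 for genes with a mean KO signal below −4 and 0.41 for those from 2 upward, and the bright spike-in RNAs differed by 0.48.

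**Figure D1:**
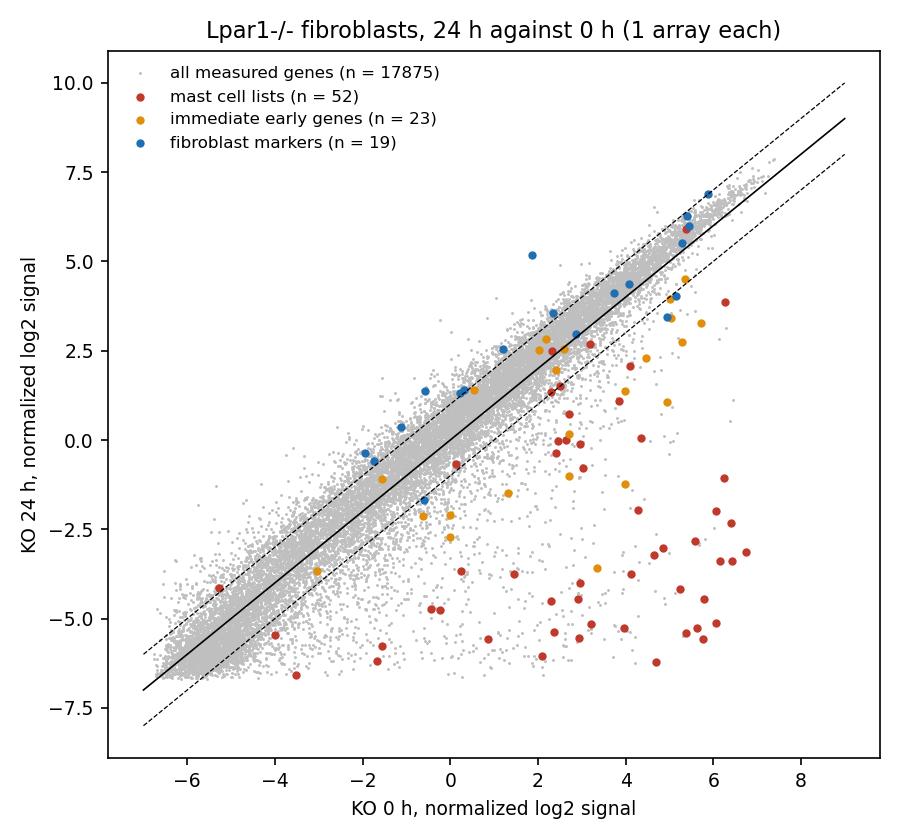
Normalized log2 signal of each measured gene on the KO 0 h array (x axis) and the KO 24 h array (y axis); the solid line marks equal signal, the dashed lines a 2-fold difference, and coloured points are mast cell lists, immediate early genes and fibroblast markers. Of the 52 measured mast cell genes 45 lie below the lower dashed line, while 10 of 19 fibroblast markers lie above the upper one.

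Mast cell genes were lower almost as a whole. Of 52 measured, 45 were lower and 1 was higher, with a median of −6.33, and 19 more were at least 2-fold lower. Cpa3, the mast cell carboxypeptidase, read 6.25 at 0 h and −1.07 at 24 h. Kit, the SCF receptor, read 5.37 and −5.40. Tph1, which makes serotonin, read 6.76 and −3.13. All 6 measured proteases were lower (median −7.60), as were all 18 measured receptors and proximal signalling genes (median −7.81). The protease Ctsg was at least 1206-fold lower, the transcription factor Gata1 at least 1603-fold and Ms4a2, a chain of the IgE receptor, at least 525-fold, none of them well above background at 24 h.

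Some genes of the mast cell lists had a clear signal at 24 h, where the receptor and proximal signalling list had a median signal of −5.40. Which cells it came from was not tested. Il1rl1, the receptor for interleukin 33, read 6.28 and 3.86, a difference of −2.41 against −8.14 in WT. Its 3 probes ranged from −3.61 to 0.46. Rab27b, which works in granule release, read 4.09 and 2.08, and its 2 probes gave −3.80 and −2.02. The transcription factors Mitf (3.85 and 1.08), Runx1 (2.46 and −0.02) and Gata2 (4.36 and 0.06) differed by −2.77, −2.47 and −4.30. Lysosomal and secretory genes that many cells use were not called: Lamp1 differed by 0.53, Hexa by 0.16 and Vamp8 by −0.50.

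Leukocyte genes beyond mast cells were lower too, and markers of other cell types were mostly dim. Of 18 measured pan-leukocyte markers 15 were lower (median −7.23), among them Rac2, a haematopoietic small GTPase (4.90 and −4.58), and Tyrobp, an adaptor of activating receptors (5.0 and −3.18). Ptprc, which encodes CD45, was at least 99.5-fold lower. Macrophage and dendritic markers had 3 higher and 3 lower of 10 (median 0.08), with Clec7a, a receptor for fungal glucans, at 2.33 and Adgre1, the F4/80 antigen, at −4.56. Of 3 measured endothelial markers Vwf (−4.50, with a second probe at −1.91) and Pecam1 (−3.43) were lower. Epithelial markers had 0 higher and 1 lower of 7. Granulocyte markers had 0 higher and 1 lower of 6, and lymphocyte markers 1 higher and 0 lower of 3.

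Fibroblast markers stand for the cells that the labels name. The log2 of their summed signal was 8.25 at 0 h and 8.79 at 24 h, against 10.39 and 6.77 for the 75 mast cell genes. They are thus no check that the 0 h array held fibroblasts alone. Of 22 markers 19 were measured, 10 were higher and 3 lower, and the median in WT was 0.49. Decorin (Dcn), a small proteoglycan that binds collagen (chromosome 10 from 96980233 to 96980292, mm9), read 1.86 and 5.19, a difference of 3.33 ± 0.20 (SE). The receptor Pdgfra read −0.57 and 1.37, and Fbln1, a matrix glycoprotein, −1.95 and −0.37. Structural genes differed less: Col1a1 differed by 0.09, Col1a2 by 0.55, Fn1 by 0.22 and Vim by 0.29. Cd34 (−1.5), Ly6a (−1.12) and Postn (−1.08) were lower. Neither Lum nor Mme was well above background in KO, and Fap was so at 0 h only.

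Genes of the interleukin 6 family lay on both sides. These cytokines share the signalling chain gp130, encoded by Il6st, and each pairs it with a receptor of its own. Of 16 measured genes 7 were higher and 3 lower, with a median of 0.57, and 1 more ligand was at least 2-fold lower. Il6 (chromosome 5 from 30346367 to 30346426, mm9) read 5.0 at 0 h and −0.39 at 24 h, a 41.8-fold lower signal. Lif, the leukaemia inhibitory factor, read 0.41 and −4.11, and oncostatin M (Osm) was at least 290-fold lower. These ligands lay far below their 0 h signal. The ligands Clcf1 (1.23) and Il11 (1.02) were higher, and Ctf1 and Cntf differed by 0.71 and −0.46.

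The other 5 higher genes of the list encode receptor chains. Osmr, the oncostatin M receptor (chromosome 15 from 6763686 to 6763745, mm9), read 0.01 and 3.01, an 8.0-fold higher signal. Lifr read −3.52 and −1.70, with 3 probes between 0.61 and 1.82. The interleukin 11 receptor Il11ra1 read 1.59 and 3.35, Il6st −0.15 and 1.51, and Il6ra −1.98 and −0.35. All 5 were higher, by 1.63 to 3.00. With fibroblast scaling Osmr alone of them stays at least 2-fold higher. In WT, where Osmr already read 3.76 at 0 h, the same 5 genes differed by 0.81 (Osmr), 1.05 (Lifr), 0.87 (Il11ra1), 0.81 (Il6st) and −0.18 (Il6ra). The difference between genotypes was not tested.

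Downstream genes of the same pathway were mixed. Stat3, the transcription factor that gp130 activates, differed by 0.43. Socs3, its feedback inhibitor, read 3.49 and 3.24, and Socs1, which restrains interferon and other Jak signals, read 3.81 and 1.17 and was lower. Cebpd, a transcription factor of the acute-phase response, read 2.49 and 4.91, a 5.35-fold higher signal, against 0.88 log2 units in WT. Bcl3, a nuclear IκB protein, read 0.83 and 3.41 in KO and 2.94 and 3.45 in WT. For Osmr, Cebpd and Bcl3 the KO array was below the WT array at 0 h and closer to it at 24 h.

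**Figure D2:**
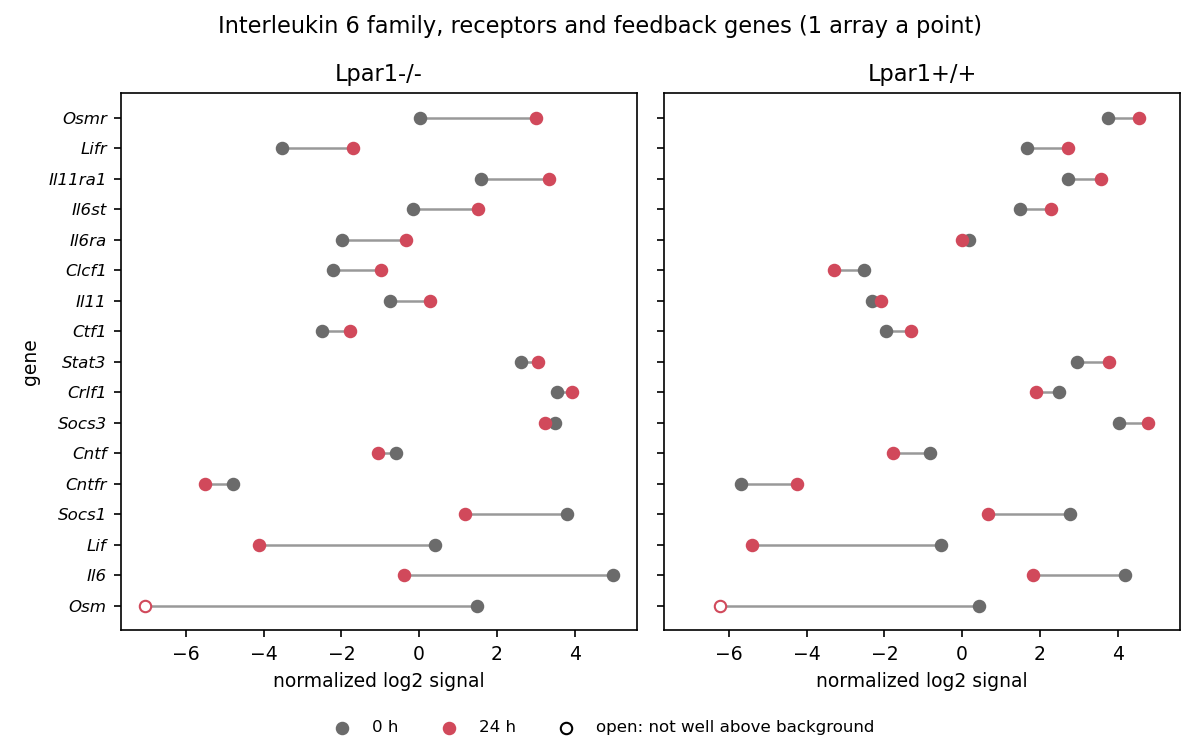
Normalized log2 signal (x axis) of the 17 interleukin 6 family genes (y axis) at 0 h (grey) and 24 h (red) on the KO arrays (left) and WT arrays (right), 1 array a point, ordered by the KO difference. Osm, Il6 and Lif lie furthest to the left of their 0 h points, while the receptors Osmr, Lifr, Il11ra1, Il6st and Il6ra lie to the right of theirs on the KO arrays.

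Interleukin 1 family genes showed ligands and receptors in both directions. Of 15 measured, 5 were higher and 4 lower (median −0.18), and Il1b and Il1r2 were at least 73.5-fold and 223-fold lower. Il33, an alarmin that activates mast cells, read −4.32 and −1.22, and the interleukin 1 receptor antagonist Il1rn read −6.53 and −4.39. Il18 (1.38), the receptor Il1r1 (1.24) and its partner Il1rap (1.27, with 3 probes from 0.25 to 1.27) were higher as well. Il18r1 (−5.77) and Irak3 (−3.54), a brake on receptor signalling that leukocytes express, were lower, beside Il1rl1 (above) and the kinase Irak4 (−1.12).

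Among factors that feed or hold mast cells, Kitl, the gene for SCF, read −3.13 and −1.86, and Nrg1, an ErbB ligand, 1.97 and 3.03. Tgfb1 was lower (−1.46.) Differences under 2-fold were found for Tslp (0.30), Csf1 (0.33), Csf2 (0.72) and Cxcl12 (0.24). Il4, a cytokine that mast cells make, was at least 318-fold lower. Of 9 measured factors 3 were higher, Il33 among them, and 1 lower.

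Both bradykinin receptors were higher on the KO arrays. In WT Bdkrb1 was not called, and Bdkrb2 could not be compared. Bradykinin is a peptide of inflammation and pain, and its receptors are encoded side by side. Bdkrb1 (chromosome 12, from 106843460) read −4.73 and −1.75, and Bdkrb2 (chromosome 12, from 106831222, mm9) read −5.46 and −2.57. In WT Bdkrb1 read −4.93 and −5.33, and Bdkrb2 was not well above background at 24 h. The KO differences were 2.98 and 2.88, and whether they differ from WT was not tested. Of all 1598 genes higher in KO and measured on the 4 arrays, 1234 passed 2-fold in neither direction in WT, so Bdkrb1 is no exception there.

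Prostanoid genes had 6 higher and 1 lower of 16 measured (median 0.58), with Ptger3 and Hpgds at least 262-fold and 66.7-fold lower. Ptgfr, the receptor for prostaglandin F2α, read −3.60 and −0.23, a 10.3-fold higher signal, against −2.02 and −0.60 in WT. Slco2a1, which carries prostaglandins into cells, read −3.02 and −0.97, and the phospholipase Pla2g2e −5.62 and −3.59, though its second probe gave 0.04. Of the cyclooxygenases, Ptgs1 differed by 1.03 and Ptgs2 by −0.71. Tbxas1, which makes thromboxane and is also on the mast cell list, read 3.22 and −5.16. Akr1c18, an aldo-keto reductase that inactivates progesterone, read −1.61 and 1.23 in KO and −0.89 and −1.06 in WT.

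Genes of lysophospholipid signalling had 6 higher and 1 lower of 17 measured (median 0.81). Enpp2, the autotaxin gene, read −1.57 and 1.23, a 6.94-fold higher signal. Lpar6, a lysophosphatidic acid receptor, read 5.07 and 0.92 and was the lower member. Lpar2 differed by 1.02, with a second probe at 0.05, Lpar4 by 0.37 and Lpar5 by −0.73, and Lpar3 was at background on both arrays. Sphingosine 1-phosphate receptors S1pr1 and S1pr3 were higher by 1.55 and 1.11, while S1pr2 differed by 0.93. The phosphatases Plpp2 and Plpp3, which break down lysophosphatidic acid at the cell surface, were higher by 1.19 and 1.15.

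Chemokines went both ways. Of 21 measured, 5 were higher and 4 lower (median 0.80). Ccl8, which draws monocytes, read −1.55 and 1.73, a 9.70-fold higher signal. Cxcl5 (1.61), Cxcl10 (1.25), Cx3cl1 (1.14) and Cxcl1 (1.08) were also higher. Ccl3 (−7.92) and Ccl4 (−9.29), macrophage inflammatory proteins that activated mast cells also release, were lower. Ccl2, which recruits monocytes, read 6.63 and 6.39, and Ccl7 differed by 0.80. Cxcl11, an interferon-induced chemokine, was lower (−1.63), although its second probe gave −0.12.

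Complement and acute-phase genes lay on both sides. Of 19 measured 8 were higher and 5 lower (median 0.78). C3, the central component (chromosome 17 from 57343416 to 57343475, mm9), read −0.22 and 3.35, an 11.9-fold higher signal, with 2 probes at 3.08 and 3.58. The protease C1ra read −1.21 and 1.12, and Serping1, the C1 inhibitor, was higher by 1.31. Acute-phase genes Hp (2.86), Cp (2.58) and Saa3 (1.18) were higher. Cd55, which dissolves C3 convertases on the cell surface, read 3.52 and −0.98, properdin (Cfp) 3.00 and −0.69, and the receptor C3ar1 −1.46 and −4.53. Cd59a, which blocks the membrane attack complex, was lower (−2.81.) In WT, Cd55 and Cfp were lower too (−6.72 and −3.06), and C3ar1 was not well above background at 24 h.

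Interferon-stimulated genes did not share a direction. Of 26 measured 7 were higher and 3 lower (median 0.46). Zbp1, a sensor of Z-form nucleic acid, read −3.74 and −0.41, but its 2 probes gave 0.40 and 3.32. Mx1, an antiviral GTPase, was higher by 2.05, and the guanylate-binding proteins Gbp2 and Gbp3 by 1.68 and 1.52. Usp18, which removes the ubiquitin-like ISG15, read −0.62 and −2.80, while in WT it differed by 0.25. Oas1a (−1.10) was lower, and Gbp6 (−1.41) was lower with a second probe at −0.31.

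Class I antigen presentation genes had 1 higher and 6 lower of 17 measured (median 0.12). Of all measured genes 9.48% were higher and 10.9% lower. In WT the list had 2 higher and 1 lower of 17. The 4 lower members named next were singled out after their values were seen, and the other lower members are not named. Psmb9, an immunoproteasome subunit (chromosome 17 from 34319174 to 34319233, mm9), read 0.84 and −2.25, and its partner Psmb8 1.82 and −0.01. The peptide transporter genes Tap2 (4.03 and 1.75) and Tap1 (−2.52 and −3.68) were lower as well. In WT the same 4 genes differed by −0.26 (Psmb9), 0.32 (Psmb8), −0.15 (Tap2) and 0.49 (Tap1). Of all 1785 genes lower in KO and measured on the 4 arrays, 784 passed in neither direction in WT and 242 were higher. The difference between genotypes was not tested. The classical heavy chains H2-K1 (0.13) and H2-D1 (−0.13) and B2m (0.46) differed by under 2-fold. Nlrc5, a regulator of class I genes, was higher by 1.62.

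NF-κB pathway genes had 5 higher and 4 lower of 18 (median 0.25). Bcl3 is given above. Traf1, an adaptor of TNF receptors, read −0.44 and 1.86, against −2.54 and −2.20 in WT. Relb (1.25, with a probe at −0.07), Nfkb2 (1.2) and Tnfaip2 (1.18) were higher. Map3k8 (−3.26), Rel (−2.56), Nfkbiz (−1.91) and Tnfaip3 (−1.29) were lower, and in WT Rel, Map3k8, Nfkbiz and Tnfaip3 were lower by 1.2 to 2.09 log2 units.

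Immediate early genes, which a stimulus switches on within minutes, were lower on the 24 h array. Of 23 measured 0 were higher and 15 lower, with a median of −2.09, and 3 more were at least 2-fold lower. Fosb (chromosome 7 from 19888168 to 19888227, mm9) read 3.36 and −3.57, a 122-fold lower signal, and Fos read 4.00 and −1.24. Both encode partners of Jun in the AP-1 factor. Egr2, a zinc finger factor, read 4.93 and 1.05, and Nr4a2, an orphan nuclear receptor, 2.70 and −1.0. Egr4 was at least 31.4-fold lower. Not all members were lower: Fosl1 differed by 0.86, Klf4 by 0.65, Klf10 by 0.50, Ier5 by 0.46 and Fosl2 by −0.05. The mast cell genes had a median of −6.33 on the same arrays, and their part in these values was not tested.

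WT arrays gave the same side for most of these genes, at smaller sizes for several. Fos differed by −3.17 in WT, Fosb by −5.57, Nr4a2 by −2.06 and Junb by −1.64, where KO gave −5.23, −6.93, −3.71 and −2.71. Btg2, an antiproliferative gene, was lower in KO (−2.09) and differed by −0.06 in WT, and Atf3, a stress factor, by −1.5 and 0.23. Jun went further in WT, at −1.79 against −1.06. None of these differences between genotypes was tested.

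**Figure D3:**
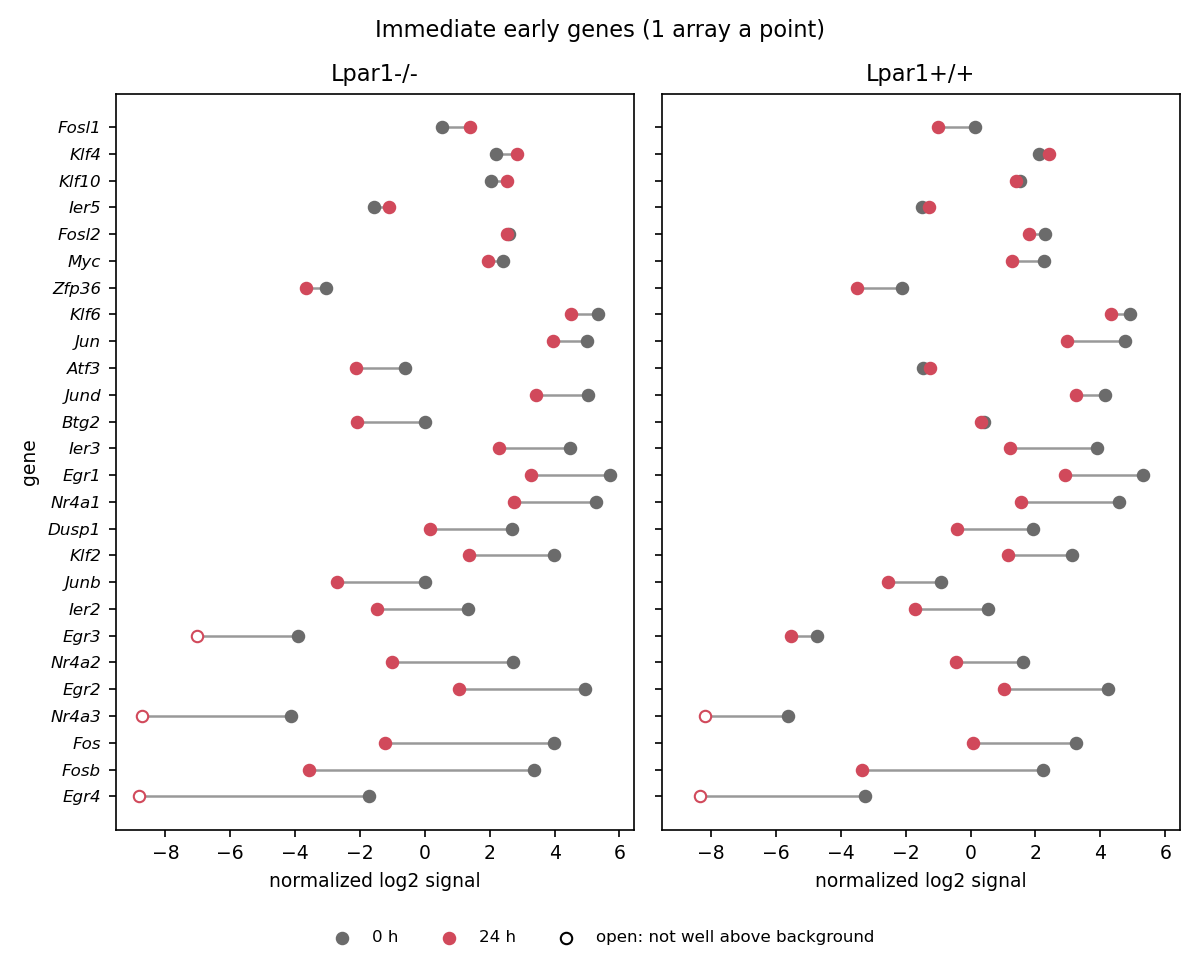
Normalized log2 signal (x axis) of the 26 immediate early genes (y axis) at 0 h (grey) and 24 h (red) on the KO arrays (left) and WT arrays (right), 1 array a point, ordered by the KO difference; open points are not well above background. Most red points lie left of the grey ones on the KO arrays, with Fosb and Fos among the widest gaps and Fosl1 at the top on the other side.

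Promoters of immediate early genes are known for sites that answer to cAMP, serum and stress signals. RefSeq promoters (GRCm38.p6) were at hand for 20 of the 26 immediate early genes, in 24 entries, and only the 250 bases before each start were searched. The letters TGACG, on either strand, are the core of the cAMP response element TGACGTCA and so lie within each match of it. They were found in 15 of 24 entries, in 13 of 20 genes, against 17.8% of 32841 promoters of the same length. Of measured genes with the letters 10 of 11 were lower (median −2.62), and without them 3 of 7 (median −0.85). Measured genes with no promoter at hand are left out of these counts, and a link between the letters and the differences was not tested. The full element was in 2 entries, Btg2 and Dusp1, against 1.55% of promoters, and the CArG box, to which serum response factor binds, in 5 entries of 2 genes, Egr2 and Zfp36, against 1.47%. A match describes the letters only and shows no binding. Shown are 3 of the members with the largest differences, with the letters TGACG or their complement in capitals, each ending at the base before the transcript start.
Fos (chr12:85473640-85473889, plus strand): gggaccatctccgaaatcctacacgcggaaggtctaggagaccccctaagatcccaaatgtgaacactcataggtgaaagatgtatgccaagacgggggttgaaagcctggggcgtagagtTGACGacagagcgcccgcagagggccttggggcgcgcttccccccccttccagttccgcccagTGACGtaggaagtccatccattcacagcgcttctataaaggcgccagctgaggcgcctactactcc
Fosb (chr7:19310046-19310295, minus strand): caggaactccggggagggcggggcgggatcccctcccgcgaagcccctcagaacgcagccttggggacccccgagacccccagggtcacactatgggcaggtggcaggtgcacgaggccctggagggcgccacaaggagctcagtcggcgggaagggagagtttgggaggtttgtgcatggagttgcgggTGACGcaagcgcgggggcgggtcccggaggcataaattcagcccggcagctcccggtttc
Nr4a2 (chr2:57124004-57124253, minus strand): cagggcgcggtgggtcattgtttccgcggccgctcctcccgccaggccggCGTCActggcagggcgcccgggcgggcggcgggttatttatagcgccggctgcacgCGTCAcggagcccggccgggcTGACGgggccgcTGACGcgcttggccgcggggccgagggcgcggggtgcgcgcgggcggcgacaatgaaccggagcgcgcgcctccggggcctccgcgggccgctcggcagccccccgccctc
Counted from the transcript start, the matches begin at −129 and −66 in Fos, at −60 in Fosb and at −200, −144, −123 and −111 in Nr4a2.

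Hypoxia and glycolysis genes also held lower members, and the list's median had the other sign in WT. Of 29 measured 0 were higher and 7 lower, with a median of −0.45, against 0.29 in WT, and Slc2a3, a glucose transporter, was at least 690-fold lower. Car9, a carbonic anhydrase at the cell surface, read −0.14 and −5.49, and Slc16a3, a lactate exporter, 2.81 and −3.08. Aldoc, an aldolase, read 4.23 and −2.96. In WT Aldoc and Slc16a3 were lower too, by −5.81 and −4.56. The part of the mast cell transcripts in these values was not tested.

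The other 4 lower members passed 2-fold lower in KO and not in WT, and were grouped after their values were seen. Of all 1785 genes lower in KO and measured on the 4 arrays, 784 passed in neither direction in WT and 242 were higher. Bnip3, which drives removal of mitochondria (chromosome 7 from 146082760 to 146082819, mm9), read 5.21 and 2.33 in KO and 4.25 and 4.19 in WT. Pdk1, the kinase that shuts pyruvate out of the mitochondrion, read −1.33 and −3.31 in KO and −1.83 and −0.44 in WT. Ankrd37 differed by −1.96 and −0.26, and P4ha1, a collagen prolyl hydroxylase, by −1.85 and −0.03. Glycolytic enzymes of wide use did not follow: Pgk1 differed by 0.63, Ldha by 0.20, Gapdh by 0.41 and Pkm by 0.91. The difference between genotypes was not tested.

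The letters ACGTG, the core of the hypoxia response element, stood in 19 of 38 promoter entries of this list, in 17 of 27 genes, against 16.6% of all promoters. Of measured genes with the core 5 of 17 were lower (median −0.51), and of those without it 2 of 10 (median −0.27). A link between the core and the differences was not tested. The overlapping letters CACGTG, the E-box, stood in 3 of the 38 entries, against 6.02% of all promoters. Car9 and Bnip3 are shown as lower genes that hold the core, with the letters ACGTG or their complement in capitals. Aldoc and Slc16a3 differed by more than Bnip3. The core stood in the promoter entry of Slc16a3 and in neither entry of Aldoc.
Car9 (chr4:43506776-43507025, plus strand): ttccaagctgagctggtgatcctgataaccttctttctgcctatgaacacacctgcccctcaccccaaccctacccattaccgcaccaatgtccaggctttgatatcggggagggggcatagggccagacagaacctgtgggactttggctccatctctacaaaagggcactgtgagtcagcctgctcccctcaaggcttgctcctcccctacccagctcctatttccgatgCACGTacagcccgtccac
Bnip3 (chr7:138909507-138909756, minus strand): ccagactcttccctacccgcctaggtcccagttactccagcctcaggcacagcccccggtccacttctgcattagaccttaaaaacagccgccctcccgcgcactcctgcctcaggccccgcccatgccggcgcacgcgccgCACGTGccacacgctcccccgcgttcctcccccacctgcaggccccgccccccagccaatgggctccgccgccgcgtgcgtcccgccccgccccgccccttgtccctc
The match begins at −18 in Car9. In Bnip3 both strands match, from −108 and −107, and together spell the E-box.

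Stress and clock genes held further lower members. Of 22 measured genes of the unfolded protein and integrated stress response 1 was higher and 6 lower (median 0.17). Ppp1r15a, a phosphatase subunit that restores translation, read 5.20 and 2.85, and was lower in WT as well (−2.08). Lower in KO by 1.2 to 1.70 were Sdf2l1, Xbp1, Edem1, Dnajb9 and Dnajc3, genes of the endoplasmic reticulum response, which differed in WT by 0.10, −0.36, 0.11, −0.80 and −0.20. The chaperones Hspa5 (0.11) and Hsp90b1 (0.03) differed little. Phgdh, of serine synthesis, was higher by 1.19.

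Of 17 measured clock genes 0 were higher and 4 lower (median 0.09). Per1, a repressor of the clock that glucocorticoids also induce, read 3.41 and 0.33, an 8.45-fold lower signal, and Per2 −3.96 and −5.44. Bhlhe40 read 2.96 and 1.19, and Rora −3.11 and −5.37, with a second probe at −0.43. The core activators Arntl and Clock differed by 0.43 and 0.36. In WT Per1 was lower (−1.32), and Per2, Bhlhe40 and Rora differed by −0.81, −0.32 and −0.05. Among other glucocorticoid-responsive genes, Fkbp5 differed by 0.57 and Tsc22d3 by −0.30, and Mt2, a metallothionein, was higher by 1.89.

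Matrix genes held few lower members, where 10.9% of all measured genes were lower and 9.48% higher. Matrix metalloproteinases and their inhibitors had 9 higher and 0 lower of 17 measured, with a median of 1.01, which turns to −0.01 with fibroblast scaling. Mmp19 read −4.66 and −1.69, Mmp3, or stromelysin, −1.18 and 1.15, and Mmp9, a gelatinase, −4.52 and −2.47. Mmp13 (1.45), the aggrecanase Adamts1 (1.44) and Mmp2 (1.31) followed. The inhibitors were not called: Timp1 differed by 0.46, Timp2 by 0.94 and Timp3 by −0.26. In WT Mmp3 and Mmp19 differed by 0.42 and 1.35.

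Collagens had 5 higher and 0 lower of 19 (median 0.55). Col6a1 and Col6a2, chains of the beaded collagen VI, were higher by 2.07 and 1.85, and Col16a1 by 1.36. Small proteoglycan and elastic fibre genes had 7 higher and 0 lower of 20 (median 0.78), with Omd (1.45), Efemp2 (1.2) and Ltbp4 (1.11) beside Dcn. Enzymes of collagen processing had 5 higher and 1 lower of 21 (median 0.60), and P4ha1 was the lower one. Hyaluronan genes had 4 higher and 0 lower of 12 (median 0.26): Tnfaip6, which joins hyaluronan to heavy chains, read −4.34 and −2.20, and Vcan was higher by 1.43. Cd44, the hyaluronan receptor, differed by 1.17, with 4 probes from −0.20 to 1.17, and Has2, a synthase, by 0.04.

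Integrins and contractile genes had no lower call. Of all measured genes 10.9% were lower, and 3.52% of those with a mean KO signal of 2 and above. Lists of this size can hold none at such shares. Of 12 measured integrins and adhesion genes 3 were higher and 0 lower (median 0.66), with Vcam1 at 1.45 and Itgb5 at 1.14. Itga6 was called at 1.16 by one probe while its other probe gave −1.25. Contractile and SRF target genes had 0 higher and 0 lower of 18 (median 0.42). Acta2, the smooth muscle actin of myofibroblasts, read 6.32 and 6.31, and Tagln 5.92 and 6.03.

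Growth factors had 8 higher and 2 lower of 22 measured (median 0.61). Fgf10, a ligand for epithelium, read −5.08 and −2.55, and Hgf, the hepatocyte growth factor, −2.47 and −0.45. Hgf read −5.73 in WT at 0 h and was not well above background there at 24 h. Angpt2, which destabilizes vessels, read −2.68 and −0.34, and its rival Angpt1 read 2.60 and 0.75. The lymphatic factor Vegfd was higher by 1.91, Gdnf by 1.18 and Pdgfc by 1.15, while Vegfa differed by −0.45. In WT Angpt1 differed by −0.05.

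TGF-β and BMP genes had 6 higher and 4 lower of 24 (median 0.53, against −0.26 in WT). Tgfbi, a secreted TGF-β target, read 1.03 and 3.99, and Tgfbr3, the co-receptor betaglycan, 0.05 and 1.84. Tgfbr1, the signalling receptor, read 1.6 and −1.22, with a second probe at −1.31, and Tgfbr2 was lower (−1.02.) The ligands Tgfb3 (1.25) and Bmp4 (1.22) were higher and Tgfb1 (−1.46) lower. Id1 and Id3, which BMP signals induce, differed by 0.89 and 0.94, while Id2 was lower (−1.80.)

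Wnt genes had 6 higher and 2 lower of 19 (median 0.67). The ligands Wnt10a (2.41), Wnt4 (1.72) and Wnt5a (1.09) and the receptors Fzd1 (1.31) and Ror2 (1.05) were higher. Wnt9a (−2.18) and Fzd4 (−2.14) were lower, and the target Axin2 was at least 7.21-fold lower. Rspo1, which amplifies Wnt signals, was at least 4.01-fold higher. IGF genes had 4 higher and 2 lower of 12 (median 0.41), with Igfbp6 at 1.78 and the receptor substrate Irs2 at −1.75. Igfbp5 was at least 2231-fold lower.

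Lipid synthesis genes were higher in part. Of 25 measured cholesterol genes 11 were higher and 1 lower (median 0.79, against 0.23 over all genes). Mvd (−0.37 and 1.79), Nsdhl (−0.65 and 1.41) and Fdft1 (0.26 and 1.94) are enzymes of the pathway and differed by 2.17, 2.06 and 1.68. Nsdhl had a second probe at 0.82. Sqle, another enzyme of the pathway, differed by 0.31. Abcg1, a sterol exporter that leukocytes use, was the lower member, at −7.51. In WT Mvd, Nsdhl and Fdft1 were higher by 1.58, 1.55 and 1.57. Fatty acid and adipogenic genes had 7 higher and 2 lower of 22 (median 0.81), with the elongase Elovl6 at 1.70 and Pparg, the fat cell regulator, at 1.33, while Srebf1 was lower (−1.35.)

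Ribosomal protein genes had 0 higher and 0 lower of 22 (median 0.36), and oxidative phosphorylation genes 1 higher and 0 lower of 25 (median 0.48). S phase genes had 2 higher and 0 lower of 19 (median 0.58, against 0.08 in WT), the helicase subunit Mcm2 (0.86 and 2.32) and the cyclin Ccne1 (3.13 and 4.30). G2 and mitosis genes had 0 higher and 0 lower of 19 (median 0.53, against 0.15 in WT). Among inhibitors of the cycle Cdkn1b (−1.18) and Cdkn1a (−1.27, with 3 probes from −3.87 to −1.27) were lower, and Cdkn2a (1.22) and Cdkn2b (1.13) higher, in a list with 3 higher and 5 lower of 19. NRF2 and metal response genes had 1 higher and 0 lower of 20, which was Mt2. MAPK feedback genes had 2 higher and 1 lower of 15, with Spred3 at 1.83 and Dusp5 at −1.43.

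**Figure D4:**
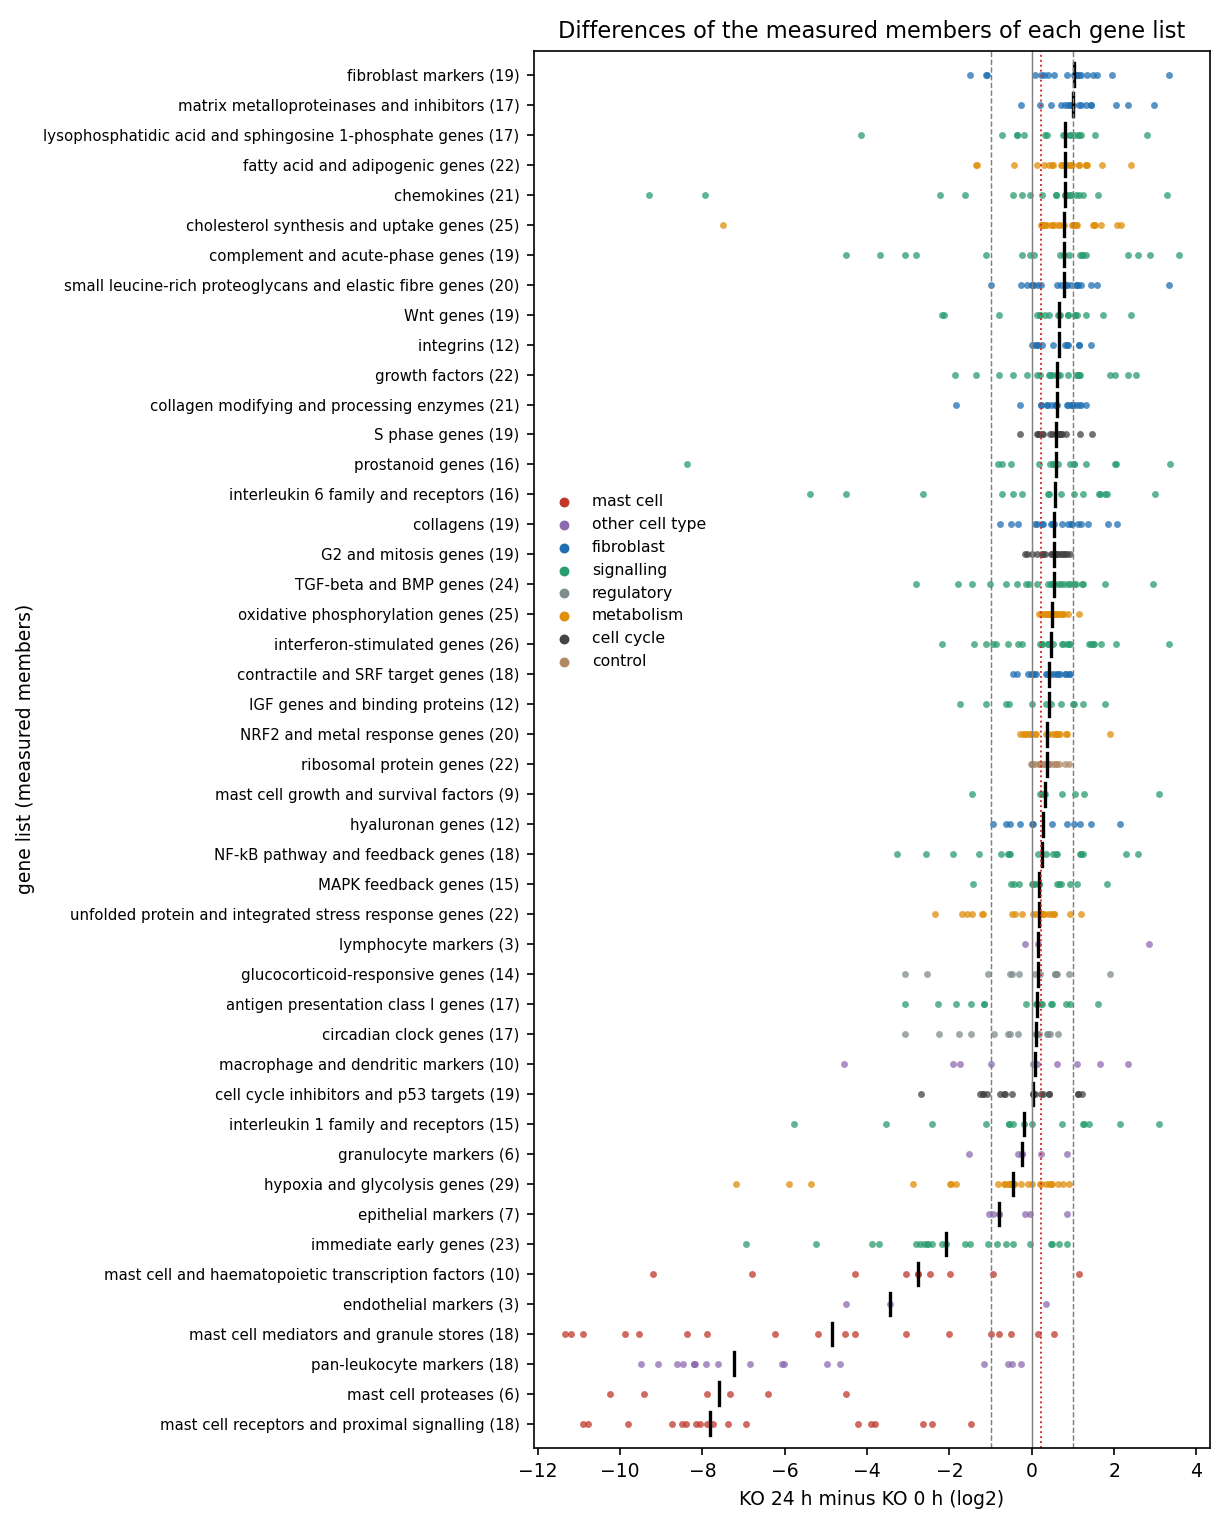
Differences between KO 24 h and KO 0 h (x axis, log2) of the measured members of 46 gene lists (y axis, with the number measured), 1 point a gene; black ticks are list medians, dashed lines a 2-fold difference and the dotted red line the median of all genes. Mast cell and leukocyte lists lie far to the left, immediate early genes at a median of −2.09, and fibroblast markers at the top with a median of 1.02.

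Genes outside these lists stood among the largest differences too. Arhgap8, a GTPase-activating protein, read −5.34 and −1.28, the largest higher difference at 4.06 ± 0.23 (SE), and Ubd, a ubiquitin-like modifier, −5.75 and −1.82. Spon2, a matrix protein, read −2.58 and 0.36, Trem2, a receptor of myeloid cells, −3.35 and −0.79, and Aqp3, a water and glycerol channel, −3.70 and −1.16. Il13ra1, a chain of the interleukin 13 receptor, was higher by 2.69 and Olfm1 by 2.53. The transcription factors Spib, Wt1 and Tfec were above background at 24 h only and at least 20.7-fold, 12.4-fold and 10.7-fold higher. In WT Wt1 read 0.16 and 1.91, and Tfec was not well above background at either time.

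At the other end stood genes known from haematopoietic cells. Scin, an actin-severing protein, read 5.77 and −5.57, the lowest difference at −11.34, followed by Rab44 (−11.18) and the adenosine receptor Adora3 (−10.91), all 3 of them on the mast cell lists. Not on a list were Rprm, a p53 target (−10.82), Cst7, a protease inhibitor of leukocytes (−10.02), Prkcb, a protein kinase C (−9.73), and Inpp5d, the phosphatase SHIP1 (−9.18). Pygl, a glycogen phosphorylase, was lower (−8.91.) Cx3cr1, the fractalkine receptor, Cd69, an activation antigen, and Rgs1, a regulator of G protein signals, were at least 2027-fold, 1746-fold and 1717-fold lower.

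Of genes measured on all 4 arrays, most KO calls had no WT call beside them. Among 1598 genes higher in KO, 354 were higher in WT, 1234 passed 2-fold in neither direction and 10 were lower. Among 1785 genes lower in KO, 759 were lower in WT, 784 passed in neither direction and 242 were higher. In WT 15.8% of measured genes were higher and 5.57% lower. No array is shared between both comparisons, and the difference between them was not tested, as each group has 1 array. Dim genes weigh in these counts: below a mean KO signal of −4 208 genes were higher and 593 lower, whereas from 2 upward 321 were higher and 153 lower.

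**Figure D5:**
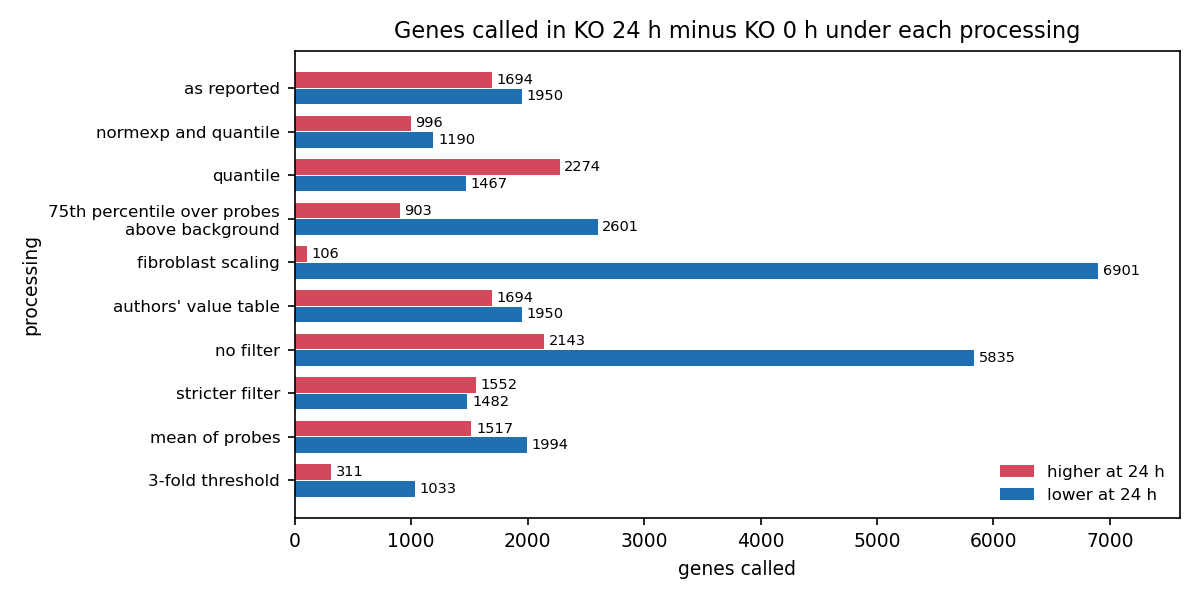
Number of genes called higher (red) or lower (blue) in KO 24 h minus KO 0 h (x axis, genes) under each processing (y axis). The reported processing gives 1694 and 1950, while scaling to fibroblast markers gives 106 and 6901. The authors' value table holds the same signal scaled to the same percentile, so its equal counts were fixed in advance and are no separate check.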

How the data were processed

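Total RNA was hybridised to 1-colour (Cy3) Agilent arrays of design 026655 with probes placed on mm9, per the file headers. The deposited scanner files hold spot intensity from Agilent Feature Extraction 12.1.1.1, with background removed by spatial detrending and no scaling between arrays, per the file headers. The deposited value table is a ratio, each processed signal over the array's 75th percentile, and served as an alternative. This is the scaling used here before log2, so the value table could not give other calls. Its linear scale, lack of centring and direction were found by setting it against the scanner files. What else the authors did is not given in the sources used here.

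Control spots and outlier spots (111 at 0 h and 122 at 24 h on the KO arrays) were left out, log2 was taken of the processed intensity, and the 75th percentile of each array's 43020 non-control spots was subtracted. A probe whose only spot was an outlier on any array was dropped. Of 39429 probes 29110 were named by accession in the RefSeq table of GRCm38.p6 (344 under a newer symbol), and 10319 stayed under the name in the file. The probe brightest on average across the 4 arrays stood for its gene, giving 29658 genes, and was measured where well above background and not saturated on both arrays. Well above background were 71.5% of spots on KO 0 h and 62.1% on KO 24 h, and 0 were saturated. The 8 bright spike-in RNAs differed by 0.48 between the KO arrays and the 2 dim ones by −0.27. Of 4611 genes with several measured probes, the median range over probes was 0.40. The number of arrays limits the precision.

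A gene was called at 2-fold. Promoters come from RefSeq (GRCm38.p6). The members, 46 gene lists and rules were chosen with earlier results of these data known. Named genes are the 30 highest and 30 lowest that normexp also puts past 2-fold, 10 genes a side with the greatest "at least" folds, members of the lists and genes of the study's pathway. Genes opposite in KO and WT were named after their values were seen. Alternatives were normexp (offset 50) with quantile normalization, quantile normalization, other scaling sets, the value table, no or a stricter filter, the mean of probes and a 3-fold threshold. Calls were tested on simulated data made from the KO 0 h array with spot noise. These data held no loss of mast cell RNA and no differences between cultures, so the calls were not tested against either. Tools were R 4.3.3, limma 3.58.1, Python 3.11.15, numpy 2.4.6, pandas 2.3.3 and matplotlib 3.10.9. Some measured genes are not reported here.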

Additional observations from a re-analysis of the deposited data

Results flagged for a closer look

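In 11 named genes the KO and WT differences between 24 h and 0 h both passed 2-fold and had opposite signs. None of these differences between genotypes was tested, as each group has 1 array. Of 17143 genes measured on the 4 arrays, 10 were higher in KO and lower in WT, and 242 were lower in KO and higher in WT. Of these, 8 were opposite past 2-fold also with normexp background correction, 6 of them lower in KO. All 8 are among the 11, and genes were added to the named ones because of this pattern.

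The lower genes held interferon-inducible GTPases that act against pathogens inside cells. Gbp4, a guanylate-binding protein, differed by −2.87 in KO and 1.34 in WT, Ifi47 by −1.66 and 1.54, and Irgm2 by −1.45 and 1.55. Ifi47 read 0.75 and −0.92 on the KO arrays and 0.70 and 2.24 on the WT arrays, so the arrays at 0 h lay close and those at 24 h apart. Phyh, which starts the breakdown of branched fatty acids, differed by −2.23 and 1.11, Pdk1 by −1.98 and 1.40, and the cyclin Ccng2 by −1.75 and 1.02.

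Higher in KO and lower in WT were Prl2c1, of the proliferin family (1.57 and −1.26), Sprr2d, a small proline-rich protein of the cornified envelope (2.57 and −1.69), and the pseudogene Sprr2j-ps (1.86 and −1.55). Both families hold near-identical copies whose RNA one probe may not separate. Cldn4 (−1.04 and 1.46) and Hsd11b1 (−1.07 and 2.13), which regenerates active glucocorticoid, were the others. Cldn4 read −5.37 at its dimmest, near the floor of the array.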

How the results depend on the processing

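The counts of 1694 higher and 1950 lower genes moved by over 1.5 times under several processings. With normexp background correction they were 996 and 1190, with fibroblast scaling 106 and 6901, and at a 3-fold threshold 311 and 1033. The 75th percentile over probes above background on all 4 arrays gave 903 higher, and no filter on dim probes gave 5835 lower. Of the higher genes 57.8% were also higher with normexp, and of the lower 56.4% were also lower. Of 336 named genes with a call, each kept its direction with normexp, quantile normalization and that percentile, and 260, 293 and 277 stayed past 2-fold. That percentile lowers every difference by the same 0.21, so it could not turn a call. Some named genes were chosen for passing 2-fold with normexp, so their direction there was fixed by the choice. With fibroblast scaling, which lowers every difference alike, 219 stayed past 2-fold. Values of at least 1 log2 unit that turned there lay at its zero. They were the metalloproteinase list median −0.0081, Mmp14 −0.0081, Cyp51 −0.00358, Igfbp3 −0.007255, Loxl2 −0.0131, Ptgis −0.000457 and Sc5d −0.00339. Smaller values turned by more: of 35 list medians above 0, 34 fell below 0 there, collagens to −0.47 and hyaluronan genes to −0.75. Itga6 turned to −0.0478 with the mean of probes. The median of all genes shifted by −0.21 with the percentile over probes above background and by −0.22 with no filter. No paired analysis was possible because each group has 1 array, so no array could be left out either. Among the 3954 genes with a mean signal below −4, nearest background, the median standard error was 0.28 against 0.20 at or above 2.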
